A study of Mus musculus with 2 samples.

Results

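AP-1 is a transcription factor made of pairs of bZIP proteins, and the genes followed here are 10 that encode such proteins: Fos, Fosb, Fosl1 and Fosl2 of the Fos family, Jun, Junb and Jund of the Jun family, and Atf3, Maff and Batf3. They were chosen by name, with earlier results of these data known. Every probe set was taken that the array's annotation gives to 1 of these genes alone. That gave 14 of the 45101 probe sets of the array and 10 of the 18194 genes it names. The arrays compared mouse bone marrow-derived macrophages (BMDMs) that had received apoptotic W3 cell supernatant for 1 hr and BMDMs that had received medium for the same time, 1 array each. The marrow came from female C57BL/6J mice aged 8 weeks, and M-CSF turned it into macrophages over more than 7 days. W3 is a Fas-expressing line of mouse T cells. Its cells received human Fas ligand (FasL) for 30 min, were washed and stood for 60 min in RPMI with 1% FCS before the supernatant was taken. The control medium is labelled as RPMI with 10% FCS, so serum content and factors from apoptotic cells cannot be told apart between the arrays, and neither can apoptosis and conditioning of the medium by W3 cells, since supernatant of living W3 cells was put on no array.

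A bZIP protein binds DNA through a basic region and pairs with a partner through a leucine zipper. Fos proteins pair with Jun proteins and not with each other, whereas Jun proteins also pair among themselves. Several of these genes are immediate early genes, transcribed within minutes of a stimulus from factors already present in the cell, and in macrophages AP-1 acts at promoters and enhancers of cytokine, chemokine and protease genes.

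The promoters of immediate early genes are known for sites of CREB, the factor activated by cAMP, and of serum response factor. The RefSeq promoter table (GRCm38.p6) held 11 windows for 9 of the 10 members, each 300 bases long, from 250 bases before the annotated start to 50 after it. Fosl1 had no window. The core of the CREB site, TGACG, was found on either strand in 6 of the 11 member windows, against 20.8% of all 32851 windows. These 6 belong to 5 members, Fos, Fosb, Junb, Atf3 and Maff, of which Maff has 3 windows. The 4 windows below belong to 4 of these 5 members, 3 with a higher and 1 with a lower signal after the supernatant. Those of Maff, which also had a lower signal, are not printed. Whether the core goes with the ratio was not tested. TGACG, or its reverse complement CGTCA, is in capitals.
Fosb, chr7:19309996-19310295, minus strand: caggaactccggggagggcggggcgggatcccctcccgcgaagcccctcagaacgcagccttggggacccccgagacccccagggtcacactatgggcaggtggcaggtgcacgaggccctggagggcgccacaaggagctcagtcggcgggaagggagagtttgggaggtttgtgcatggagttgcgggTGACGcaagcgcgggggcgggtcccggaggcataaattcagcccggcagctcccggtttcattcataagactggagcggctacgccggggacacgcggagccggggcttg
Fos, chr12:85473640-85473939, plus strand: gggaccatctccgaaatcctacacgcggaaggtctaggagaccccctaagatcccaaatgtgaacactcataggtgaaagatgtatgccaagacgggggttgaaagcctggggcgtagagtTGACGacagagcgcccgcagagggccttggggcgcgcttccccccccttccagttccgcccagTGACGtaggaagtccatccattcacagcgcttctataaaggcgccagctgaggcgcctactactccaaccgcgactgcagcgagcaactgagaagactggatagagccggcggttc
Junb, chr8:84978699-84978998, minus strand: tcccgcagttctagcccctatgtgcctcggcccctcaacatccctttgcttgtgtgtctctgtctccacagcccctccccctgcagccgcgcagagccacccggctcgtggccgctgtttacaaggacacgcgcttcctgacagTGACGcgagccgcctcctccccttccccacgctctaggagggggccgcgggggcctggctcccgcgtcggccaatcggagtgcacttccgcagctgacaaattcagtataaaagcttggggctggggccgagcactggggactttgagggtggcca
Atf3, chr1:191183284-191183583, minus strand: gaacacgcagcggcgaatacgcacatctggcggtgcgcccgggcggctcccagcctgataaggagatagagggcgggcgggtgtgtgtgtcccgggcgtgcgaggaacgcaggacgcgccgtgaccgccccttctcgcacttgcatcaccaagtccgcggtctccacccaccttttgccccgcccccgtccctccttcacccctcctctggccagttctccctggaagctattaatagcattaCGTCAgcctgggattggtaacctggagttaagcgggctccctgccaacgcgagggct

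The core lay 56 bases before the start in Fosb, 62 and 125 before it in Fos, 102 before it in Junb and 3 before it in Atf3, counted to its nearest base. The windows of Fosl2, Jun, Jund and Batf3 held none. The full palindrome TGACGTCA, which contains the core on both strands, was found in 1 member window, one of the 3 of Maff, and in 1.79% of all windows. The AP-1 site TGACTCA, present in 5.2% of all windows, and the CArG box of serum response factor, present in 1.63%, were found in no member window. TATAAA was found in the windows of Fos and Junb and in 13.6% of all. These are exact matches of letters and were not tested for binding. Sites more than 250 bases before the start, or with letters that depart from these patterns, were not searched for. A window without a match therefore does not show that the promoter lacks the site.

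The deposited values are MAS5 signals, linear intensities per probe set. Signals under a floor of 38.4, the 95th percentile of 80 probe sets of olfactory and vomeronasal receptors on the medium array, were set to that floor. A ratio with a signal under it is therefore a lower bound, written as "at least". Counts take a bound at its floored value, so a gene counted as under 2-fold may differ by more where 1 of its signals is under the floor. A gene with several probe sets was read by the brightest. Neither condition was replicated, so no ratio has a test or an SD, the precision is limited by the number of arrays, and 2-fold is used as a round threshold. Both arrays had a trimmed mean signal of 500.0, the ratios of 3' to 5' control probe sets were 1.21 for Actb and 0.964 for Gapdh with the supernatant against 1.16 and 0.969 with medium, and all 11 macrophage markers with a probe set were above the floor.

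Of the 10 AP-1 members 2 had a signal at least 2-fold higher after apoptotic cell supernatant than after medium, Fosb and Fosl2, and 1, Atf3, a signal at least 2-fold lower. The other 7 lay in between, with Junb, Batf3, Fos and Fosl1 on the higher side, Jun and Maff on the lower side and Jund near equality. Among the 11977 genes measured on the arrays, which are those above the floor on 1 array or both, 0.96% reached 2-fold upward and 0.843% reached it downward. The median log2 ratio (supernatant over medium) of the members was 0.50, against -0.02 over all measured genes, and 7 of the 10 had a ratio above 1, as did 45.4% of all measured genes. From high to low the members ran Fosb, Fosl2, Batf3, Junb, Fos, Fosl1, Jund, Maff, Jun and Atf3. Where 1 gene has several probe sets, the log2 ratios of its 2 brightest differed by up to 0.75 in 95% of genes, and from Batf3 down to Atf3 each member lay closer than that to the next, so the data do not order these neighbours.

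The highest ratio in the Fos family as reported was that of Fosb, which encodes a partner of the Jun proteins close in sequence to Fos. Its only probe set had a signal of 305 with apoptotic cell supernatant, against 35.6 with medium, which is just under the floor. Fosb was therefore at least 7.95-fold higher with the supernatant, a log2 ratio of 2.99 or more, and the ratio of the deposited signals was 8.57. Raising the floor 2 times gave a bound of 3.97-fold, under the 4.14-fold of Fosl2, and adding the floor to both signals as a pseudocount gave a ratio of 4.64, so the size of the Fosb difference and its place above Fosl2 depend on how the dim medium signal is treated.

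Fosl2 encodes Fra-2, a Fos protein that lacks the strong activation domain of Fos. Its brightest probe set read 4670 with the supernatant and 1127 with medium, 4.14-fold higher (log2 ratio 2.05), with both signals far above the floor. The other probe set of Fosl2 read 157 with the supernatant and 86.9 with medium, a ratio of 1.81. The log2 ratios of these probe sets differed by 1.19, and among 5196 genes with 2 or more probe sets that exceeded the floor on each array, the median of this difference between the 2 brightest was 0.17 and 1.06% of genes had a larger one. Both Fosl2 probe sets were higher with the supernatant, and only the brighter one passed 2-fold. On the mean of both, the log2 ratio was 1.45. By its brighter probe set Fosl2 ranked 8 from the top among the 3840 measured genes with a mean signal from 1000 to 10000.

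Fos itself, the founding member of the family, read 19604 with the supernatant and 13451 with medium, 1.46-fold higher (log2 ratio 0.54), on a single probe set. Its ratio was small beside those of Fosb and Fosl2, and the medium array already gave a high signal. Ratios spread less among bright genes, however. Of the 431 measured genes with a mean signal above 10000, none was 2-fold higher or lower, the SD of the log2 ratio across genes was 0.0952, and the Fos ratio was the second highest, rank 2 of 431. Fosl1, which encodes Fra-1, read 99.1 with the supernatant and 72.4 with medium on its brighter probe set, a ratio of 1.37. Its other probe set was under the floor on both arrays and gives no ratio. In the band of Fosl1, mean signals under 100, the SD was 0.49, larger than its log2 ratio of 0.45.

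Set against Fos, the log2 ratio of Fosb was higher by at least 2.45 with the floor of 38.4, a difference in ratio of at least 5.45-fold. The gap was smaller with the floor 2 times as high (Fosb 1.99, Fos 0.54) and with the pseudocount (Fosb 2.21, Fos 0.54). By its brighter probe set Fosl2 lay 1.51 above Fos, a 2.84-fold difference in ratio. The other Fosl2 probe set had a log2 ratio of 0.86, against 0.54 for Fos, so the size of this gap depended on which was read. Fosl1 differed from Fos by -0.09. All 4 Fos genes had a ratio above 1, and 2 of them passed 2-fold.

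**Figure D1:**
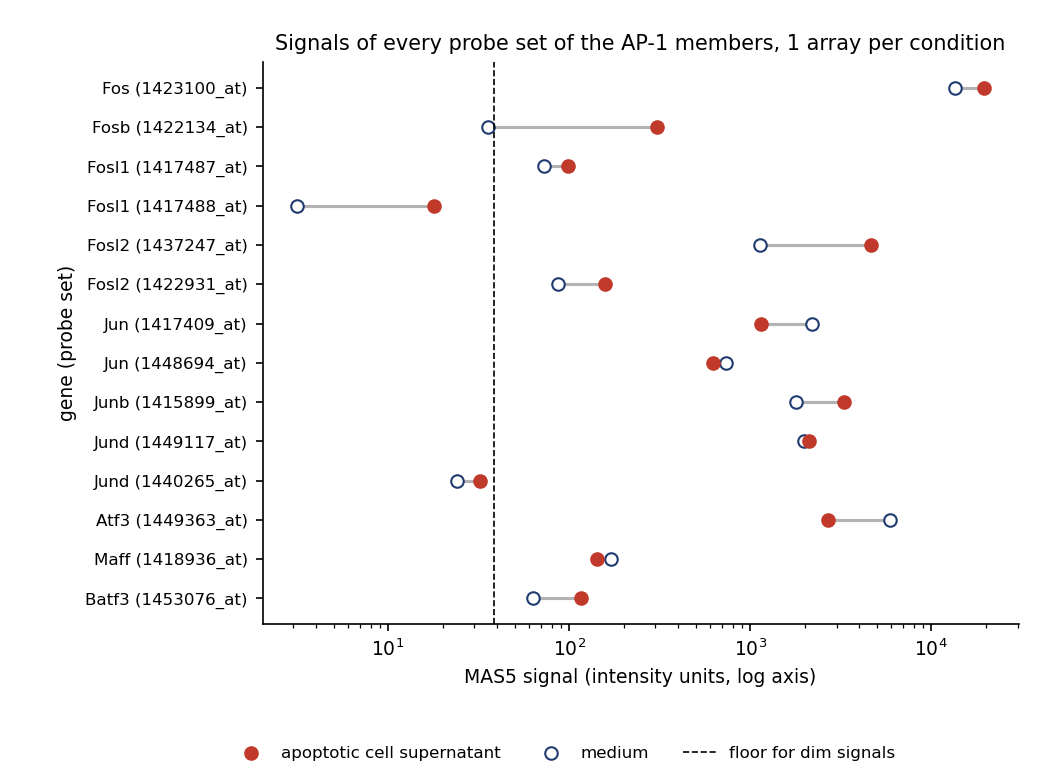
MAS5 signal (intensity, log axis) of all 14 probe sets of the AP-1 members with apoptotic cell supernatant (filled circles) and with medium (open circles), 1 array each, with the floor of 38.4 as a dashed line. Fosb crosses the floor (305 with the supernatant, 35.6 with medium), the circles of Atf3 and both Jun probe sets lie in the opposite order to those of Fosl2 and Junb, and 2 probe sets, of Fosl1 and Jund, lie under the floor on both arrays.

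The Jun family did not move as a block. Jun, the main partner of Fos and the strongest activator of the family, read 1144 with the supernatant and 2206 with medium on its brighter probe set, 1.93-fold lower (log2 ratio -0.95) and just short of 2-fold. Its other probe set read 624 with the supernatant and 731 with medium, 1.17-fold lower. The log2 ratios of both Jun probe sets were below 0 and differed by 0.72 in size, and 5.89% of the 5196 genes had a larger difference. With the mean of both probe sets the Jun log2 ratio was -0.59. Jun ranked 4 from the bottom among 3840 measured genes with a mean signal from 1000 to 10000, where the SD of the log2 ratio was 0.25.

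Junb, which in many promoters activates more weakly than Jun and can oppose it, read 3291 with the supernatant and 1798 with medium, 1.83-fold higher (log2 ratio 0.87). It ranked 32 from the top in the same band. Jund, the member that is present in resting cells, read 2124 with the supernatant and 1994 with medium, a ratio of 1.07, and its other probe set was under the floor on both arrays. The log2 ratio of Junb was 1.82 above that of Jun, a 3.53-fold difference in ratio. Against the other Jun probe set the difference was 1.10 (Jun minus Junb, -1.10). Jund lay 1.04 above Jun by the brighter Jun probe set. The other Jun probe set had a log2 ratio of -0.23, against 0.09 for Jund. These are closer than the 0.75 by which probe sets of 1 gene can differ, so by that probe set the data do not order Jund and Jun. Jun had the lowest ratio of the Jun family with either probe set, whereas the size of its gaps to Junb and Jund depended on which was read.

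Atf3, a stress-induced bZIP factor that in macrophages restrains genes induced by Toll-like receptors, was the member with the lowest ratio. Its single probe set read 2699 with the supernatant and 5895 with medium, 2.18-fold lower (log2 ratio -1.13). In the band of mean signals from 1000 to 10000, 3 of 3840 genes were at least 2-fold lower, and Atf3 had the lowest ratio of that band (rank 1 of 3840 from the bottom). Its log2 ratio ran from -1.14 to -1.02 over the processing alternatives.

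Maff is a small Maf protein without an activation domain, which pairs with Nrf2 and Bach1. It read 142 with the supernatant and 171 with medium, 1.20-fold lower (log2 ratio -0.27), within the SD of 0.36 of genes with mean signals from 100 to 1000. Batf3, which pairs with Jun and is needed for the development of a class of dendritic cells, read 117 with the supernatant and 63.5 with medium, a ratio of 1.84 (log2 ratio 0.88). Its medium signal lay close to 62.4, the brightest of the 80 receptor probe sets on that array. With the floor 2 times as high the Batf3 log2 ratio was 0.61. The ratios of Maff and Batf3 thus rest on dim signals, and neither reached 2-fold.

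**Figure D2:**
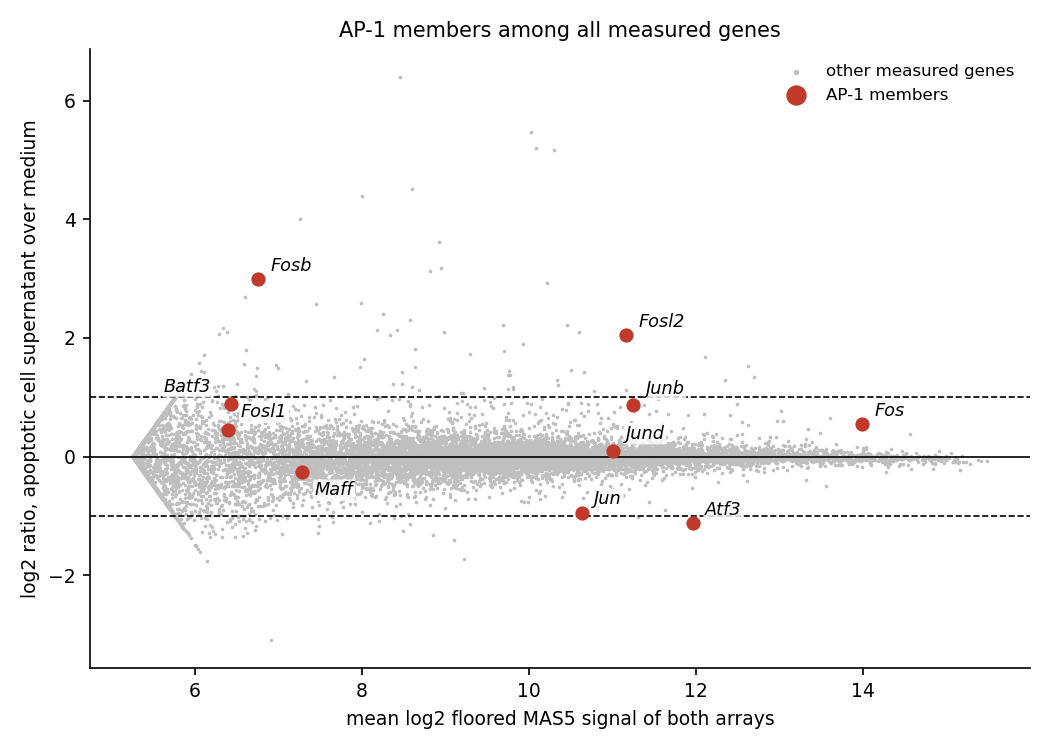
Log2 ratio of floored signals, apoptotic cell supernatant over medium, against the mean log2 signal of both arrays for all 11977 measured genes (grey points) and the 10 AP-1 members (red), and a 2-fold difference marked by dashed lines. Fosb (2.99) and Fosl2 (2.05) lie above the upper line and Atf3 (-1.13) below the lower one. The grey cloud narrows to the right, where Fos (0.54) and Atf3 lie at its edges.

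The plot of ratios by processing sets these values beside those from 9 alternatives, which change the scaling of the arrays, the treatment of dim signals or the choice of probe set. Fosb and Fosl2 passed 2-fold upward and Atf3 downward in all 9, and the log2 ratio of each of the 10 members had the same sign in all 9. Several alternatives could not move most members. No member probe set carries a suffix, 6 members have a single probe set, and a changed floor moves only members with a dim signal. All 9 read the same 2 arrays, so their agreement does not stand in for replicates.

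**Figure D3:**
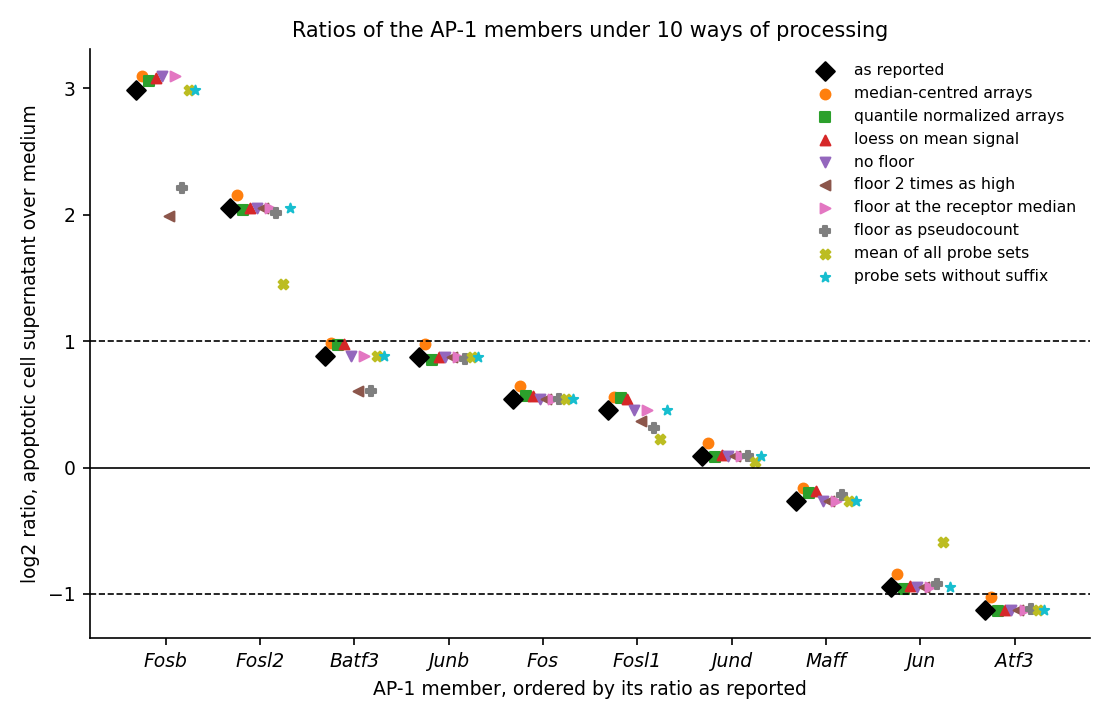
Log2 ratio of each AP-1 member, apoptotic cell supernatant over medium, as reported (black diamonds) and under 9 other ways of processing (coloured marks). Dashed lines stand at 2-fold. Fosb ranges from 1.99 to 3.10 and Fosl2 from 1.45 to 2.16, all above the upper line, while Jun stays between -0.96 and -0.59 and never reaches the lower one.

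Other bZIP factors, among them partners and competitors of AP-1, mostly had ratios near 1. Of 24 genes with a probe set 23 were measured, 2 passed 2-fold upward and none downward, and the median log2 ratio was 0.00. Nfil3, a repressor that binds the sites of PAR bZIP activators, was 4.67-fold higher (1783 with the supernatant, 382 with medium), and Crem, which encodes activators and repressors at CREB sites, 3.42-fold higher (1541 with the supernatant, 451 with medium). Cebpb, a factor of macrophage genes and a partner of several bZIP proteins, was 1.58-fold higher (15690 with the supernatant, 9955 with medium), and Cebpd 1.52-fold lower (498 with the supernatant, 756 with medium). The log2 ratios of the list ran from -0.60 to 2.22. Among genes whose products can pair with Jun they were 0.17 for Batf, 0.16 for Jdp2, a repressor, 0.07 for Atf2, which binds the Jun promoter with Jun, and -0.43 for Atf4, a factor of the stress response (2352 with the supernatant, 3169 with medium). The other small Maf genes, Mafg and Mafk, had log2 ratios of -0.24 and -0.11, beside -0.27 for Maff. These 6 were named after their values were seen.

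The genes that act upstream of AP-1, the kinases of the MAP kinase pathways and the factors that bind Fos and Jun promoters, also differed little at the level of mRNA. Of 25 with a probe set 23 were measured. Mapk11, the p38 beta kinase, was 2.32-fold higher on a dim probe set (139 with the supernatant, 59.8 with medium), none was 2-fold lower, and the median log2 ratio was 0.10. Mapk11 did not pass 2-fold with the floor 2 times as high, with the pseudocount or with the mean of its probe sets. Mapk7, the ERK5 kinase, was 1.53-fold lower (111 with the supernatant, 169 with medium), Map2k6, an activator of p38, 1.40-fold lower (89.0 with the supernatant, 124 with medium), and Mef2c, which binds the Jun promoter, 1.26-fold higher (2469 with the supernatant, 1954 with medium). Srf and Elk1, named after their values were seen, had log2 ratios of 0.05 and 0.15. AP-1 activity is also set by phosphorylation of these proteins, which an mRNA array does not measure.

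Genes known as AP-1 targets in macrophages and other cells went in both directions. Of 28 with a probe set 24 were measured. Of these 6 passed 2-fold upward and 2 downward, against 0.96% and 0.843% of all measured genes, and the median log2 ratio was -0.07. This list, like the others, was chosen with earlier results of these data known, so its counts are a description only. Dusp1 is also in the list of other immediate early genes. The higher ones were Il1b, an inflammatory cytokine (22.7-fold, 1845 with the supernatant and 81.3 with medium), Thbs1, a matrix glycoprotein (20.9-fold, 1175 with the supernatant and 56.2 with medium), Ptgs2, the inducible cyclooxygenase (9.10-fold, 1486 with the supernatant and 163 with medium), Vegfa, an angiogenic growth factor (5.30-fold, 706 with the supernatant and 133 with medium), Ccl2, a monocyte chemokine (2.86-fold), and Dusp1, a phosphatase of MAP kinases (2.54-fold). The lower ones were the cytokine gene Tnf (2.01-fold lower, 251 with the supernatant and 503 with medium) and Mt2, a metallothionein (2.04-fold lower, 3158 with the supernatant and 6450 with medium). Ccl2, Dusp1, Tnf and Mt2 are named because the counts include them. Of the proteases, a class often cited as AP-1 targets, Mmp13 had a log2 ratio of 0.51, Plau of -0.09, Mmp14 of -0.12 and Mmp12 of -0.46, and Mmp9 was at least 1.70-fold lower (8.42 with the supernatant, 65.2 with medium). These were also named after their values were seen. Tnf and Mt2 lay at the threshold, and between 0 and 6 targets were at least 2-fold lower in the alternatives.

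**Figure D4:**
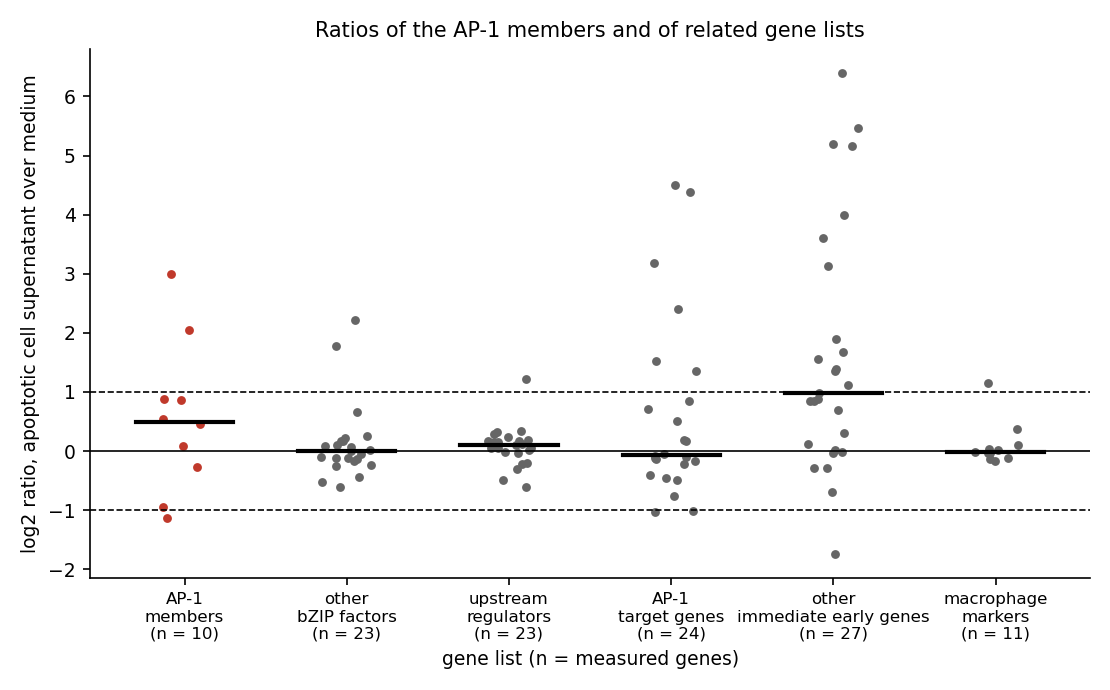
Log2 ratio of floored signals, apoptotic cell supernatant over medium, for each measured gene (points) of the AP-1 members and 5 other lists. Bars are medians and dashed lines stand at 2-fold. The median of the AP-1 members is 0.50, that of other immediate early genes 0.98, and those of the other bZIP factors, the upstream regulators, the AP-1 targets and the macrophage markers lie between -0.07 and 0.10.

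The immediate early genes outside AP-1 had a higher median ratio than the members. Of 27 measured, 13 passed 2-fold upward and 1, the Polo-like kinase gene Plk2, downward, and the median log2 ratio was 0.98. Their highest, the Myc family gene Mycn, was at least 84.0-fold higher (3224 with the supernatant, 15.7 with medium), and Nr4a2, an orphan nuclear receptor, 44.3-fold higher (6924 with the supernatant, 156 with medium), against at least 7.95-fold for Fosb. Both lists hold genes chosen with results of these arrays known, and the difference between them was not tested.

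W3 cells are T cells, and 17 T cell marker genes had a probe set. Of these 13 were under the floor on both arrays, among them Cd3d, Cd3e and Cd3g, which encode parts of the T cell receptor complex (named after their values were seen). Of the 4 measured, Zap70, a kinase of T cell receptor signalling, was 1.51-fold higher (313 with the supernatant, 208 with medium), Cd28 1.39-fold lower (283 with the supernatant, 393 with medium), Cd5 1.54-fold lower (42.8 with the supernatant, 65.9 with medium) and Cd8a at least 1.90-fold lower (20.7 with the supernatant, 72.9 with medium). The summed signal of the 17 was 783 with the supernatant and 927 with medium, most of it from Zap70 and Cd28. Of 8 neutrophil markers with a probe set 4 were measured. S100a9, Elane and Ngp passed the floor only with the supernatant, so their floored ratios could only lie above 1. S100a8 alone was above the floor on both arrays. S100a8 read 462 with the supernatant and 391 with medium, S100a9 73.0 with the supernatant and 5.85 with medium (at least 1.90-fold), and Elane and Ngp, both at or below 51.8 with the supernatant, were under the floor with medium. The summed signal of the 8 was 669 with the supernatant and 444 with medium. The part of either cell type in the values of the AP-1 members was not tested, and the levels of the members in W3 cells were not analysed here. In such bulk samples fewer cells with an mRNA and less of it per cell cannot be told apart.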

How the data were processed

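RNA of BMDMs given apoptotic W3 cell supernatant or medium for 1 hr was hybridized to Affymetrix mouse genome arrays, 1 for each condition. The authors deposited 1 intensity per probe set, the linear MAS5 signal. The submitters' processing notes and the methods name this software. Further scaling and a genome build are not given in the sources used here. Each array had the same mean signal after 2% of probe sets were trimmed at each end.

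Of 45101 probe sets the platform annotation gave 34958 a single gene, 932 several genes (used for none) and 9211 no gene. Symbols were looked up by gene identifier in RefSeq for 34754, and 0 changed. A gene was read by its probe set of highest mean signal, signals under 38.4 were set to that floor, and log2 ratios of supernatant over medium were computed in Python 3.11.15 (pandas 2.3.3 and numpy 2.4.6 for the tables, statsmodels 0.14.6 for loess, scipy 1.17.1 for the trimmed mean, matplotlib 3.10.9 for plots). No test was possible with 1 array per condition. The SD of the log2 ratio of a single probe set was estimated as 0.25, the SD of the difference between the 2 brightest probe sets of a gene over 5196 genes, divided by the square root of 2. Both probe sets were read on the same 2 arrays, so this SD measures disagreement between probe sets and not spread between replicates.

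The members, lists and the rule for named genes were chosen with earlier results of these data known. The rule names all 10 members, up to 4 measured genes per other list with the largest ratio in either direction, and the 3 genes closest in ratio to the highest and the lowest member. Bands of mean signal were chosen after seeing the data. The 9 alternatives were scalings (median-centred, quantile and loess, the last with a 30% span), treatments of dim signals (none, a floor of 76.8, one of 10.0, and a pseudocount equal to the floor) and readings of a gene (by the mean of its probe sets, and by those without a suffix). The steps were tested on simulated data in which only genes far above the floor were given folds, all well beyond 2-fold in either direction. Whether a fold is found in dim genes or near 2-fold was therefore not covered. Protein sequences were not used here.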

Additional observations from a re-analysis of the deposited data

How the results depend on the processing

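No paired analysis was possible because the comparison has a single array on either side. Under the 9 alternatives the counts of AP-1 members at least 2-fold higher (2) and lower (1) and their median log2 ratio did not leave the range set for no change, a count within 1.5 times or a shift under 0.25, the estimated SD of a single probe set. The log2 ratio of Fosb, 2.99 as reported, was 1.99 when the floor was raised 2 times and 2.21 when it was a pseudocount, since its medium signal is under the floor. That of Batf3, 0.88 as reported, was 0.61 with either. With the mean of all probe sets Fosl2 was at 1.45 and Jun at -0.59. Of the other bZIP factors 1 was at least 2-fold higher with the mean of all probe sets, in place of 2. Of the upstream regulators 0 were with the raised floor, the pseudocount or the mean, in place of 1. AP-1 targets at least 2-fold lower, 2 as reported, were 0 when median-centred, 1 with quantile normalization or loess, 6 when nothing was floored and 5 with the lower floor of 10.0, the receptor median. All genes at least 2-fold higher and lower, 115 and 101 as reported, were 1865 and 2116 when nothing was floored and 975 and 1158 with the lower floor. The number lower was 67 when median-centred, 27 with the raised floor and 51 by the mean of all probe sets. The higher share of these calls was 53.2% as reported, 70.5% when median-centred, 66.2% with quantile normalization and 65.7% with loess. Median-centring moved the median log2 ratio of all genes to 0.08, against -0.02 as reported.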

Other observations

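With 2 arrays, likeness to a member can only be closeness of its ratio. Fosb has only a bound, so no gene can be shown to be close to it. The genes with floored ratios nearest to that bound were Gm6377 (7.62-fold higher), the MAP kinase phosphatase gene Dusp5 (8.75-fold) and Ptgs2 (9.10-fold). Those nearest to Atf3 were the interferon-induced gene Mx1 (2.20-fold lower, 258 with the supernatant and 568 with medium), Rfx3 (2.17-fold lower, 39.8 with the supernatant and 86.4 with medium) and Unc5a. Unc5a (8.23 with the supernatant, 83.7 with medium) was at least 2.18-fold lower, which is a bound, and is not shown to be close to Atf3.

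Markers of other cells that bone marrow cultures can hold were mostly dim. Of the dendritic cell list 3 of 7 genes were measured, of the B cell list 4 of 6, of the stromal list 2 of 8 and of the erythroid and mast cell list 1 of 7. Of those above the floor on both arrays none differed 2-fold, and for Zbtb46, Siglech, Pax5 and Tpsb2, each under the floor on 1 array, the ratio is only a bound. Among the macrophage markers Mertk, an engulfment receptor, was 2.23-fold higher (1050 with the supernatant, 471 with medium), and the other 10 lay within 2-fold, with Cd14 1.30-fold higher (27645 with the supernatant, 21224 with medium).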
